A study of Mus musculus with 8 samples.

Results

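The transcripts of the chemokines and their receptors were followed in brown adipose tissue (BAT) of 8 male mice. Members were the protein-coding genes of the GENCODE mouse annotation (GRCm38) whose symbols carry the family names Ccl, Cxcl, Xcl, Cx3cl, Ccr, Cxcr, Xcr, Cx3cr or Ackr followed by a digit. The rule was met by 60 of the 44674 genes in the deposited table, 36 ligands and 24 receptors. The 4 Ox1RΔSERT mice carried floxed alleles of orexin receptor 1 (Ox1R fl/fl) together with Sert-Cre, which is driven by the serotonin transporter gene and removes the receptor in serotonergic cells. The 4 control mice came from the same crosses and carried Ox1R fl/fl without Cre. Every mouse of both groups was fed a high fat diet (HFD) from week 4 to week 18 and its BAT was taken when a hyperinsulinemic-euglycemic clamp, in which insulin is infused and glucose is given to hold blood glucose steady, had ended. The data hold no mouse on another diet and no basal state. Each library was made from the BAT of 1 mouse.

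Chemokines are small secreted proteins that guide leukocytes along a gradient to the tissue that makes them. They are grouped by the spacing of their first cysteines into CC, CXC, XC and CX3C ligands, and signal through receptors named after the same groups, which couple to inhibitory G proteins. A further set, the atypical receptors (Ackr), binds chemokines without signalling through G proteins and clears, stores or transports them. In adipose tissue the family is best known from obesity, in which Ccl2 and its receptor Ccr2 are part of the recruitment of monocytes that become adipose tissue macrophages, and many inflammatory ligands are transcribed after activation of NF-kB.

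The ligands of the neutrophil receptor Cxcr2 lie side by side on chromosome 5, and the bases before their starts are shown because these genes had some of the largest fold changes among the members. The sequences below are the 200 bases before the RefSeq start of each gene on GRCm38.p6, in the direction of transcription, with matches to GGGNNNTTCC on either strand, a motif of the NF-kB type, in capitals. Cxcl1 (chr5:90891045-90891244), Cxcl2 (chr5:90903699-90903898) and Cxcl3 (chr5:90785901-90786100) are on the plus strand, and Ccl9 (chr11:83578637-83578836), a ligand of Ccr1 that is shown as the second most abundant member and holds 1 match, is on the minus strand. Ccr1 (chr9:123968693-123968892, minus strand) is shown as a member with a log2 fold change of 2.62, near that of Cxcl1, and 0 matches.
Cxcl1: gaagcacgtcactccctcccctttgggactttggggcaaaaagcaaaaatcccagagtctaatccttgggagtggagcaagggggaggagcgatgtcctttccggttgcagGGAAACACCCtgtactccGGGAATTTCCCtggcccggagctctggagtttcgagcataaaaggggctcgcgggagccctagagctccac
Cxcl2: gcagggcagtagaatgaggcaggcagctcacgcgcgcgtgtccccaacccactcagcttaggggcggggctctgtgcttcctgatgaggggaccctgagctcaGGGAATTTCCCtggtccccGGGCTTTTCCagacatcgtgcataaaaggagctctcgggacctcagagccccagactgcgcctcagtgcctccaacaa
Cxcl3: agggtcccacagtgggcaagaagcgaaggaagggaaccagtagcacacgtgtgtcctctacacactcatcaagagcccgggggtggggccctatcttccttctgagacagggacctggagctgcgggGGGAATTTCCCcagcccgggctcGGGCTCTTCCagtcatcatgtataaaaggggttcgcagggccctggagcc
Ccl9: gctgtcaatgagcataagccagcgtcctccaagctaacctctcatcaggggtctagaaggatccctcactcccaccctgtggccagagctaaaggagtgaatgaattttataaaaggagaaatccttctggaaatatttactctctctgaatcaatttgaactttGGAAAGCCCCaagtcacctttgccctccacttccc
Ccr1: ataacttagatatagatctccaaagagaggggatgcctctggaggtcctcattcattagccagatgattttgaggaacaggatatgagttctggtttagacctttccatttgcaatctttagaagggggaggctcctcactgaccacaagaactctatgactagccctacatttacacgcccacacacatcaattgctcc
The promoters of Cxcl1, Cxcl2 and Cxcl3 share the run GGGAATTTCCC, which matches the motif on both strands and occurs in 14 of 32851 promoters (0.0426%). Of the members, 46 had a RefSeq promoter entry, and 8 of these (17.4%) held GGGNNNTTCC in the 250 bases before the start, against 4.65% of all promoters. The other members with a match were Ccl1, Ccl20, Ccr3 and Cxcl10. The most abundant member, Ccl6, had an entry and no match, and Cxcl5 had no entry. Matches to TTCNNNGAA, of the STAT type, were in 4 of 46 member promoters and 7.02% of all promoters, and matches to GAAANNGAAA, of the interferon response type, in 3 of 46 and 2.98%. A match is a description of the letters and no sign of binding, and members that neighbour each other share ancestry.

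The libraries held 35852708 to 50063339 estimated counts, of which mitochondrially encoded genes took 40.0% to 46.8% in control mice, 44.6% in Ox1RΔSERT mouse 11243, and 33.6%, 34.0% and 36.2% in mice 11601, 11613 and 11708, under every control mouse. Hcrtr1, the gene for Ox1R, had 0 to 5 counts in every library of both groups, so these data hold no check of the deletion, which was made in serotonergic cells. Ox1RΔSERT mice 11601 and 11708 stood apart from the other 6 mice: on a first principal component with 53.6% of the variance they were at 59.3 and 77.0 and the others between −44.3 and 7.13. Levels per transcript length are given as TPM. The summed TPM of 6 leukocyte markers was 10.3 to 16.2 in control mice, 16.1 and 23.6 in Ox1RΔSERT mice 11243 and 11613, and 100.2 and 93.6 in mice 11601 and 11708. The 9 macrophage markers had sums of 16.1 to 30.9 in control mice, 23.6 and 41.3 in mice 11243 and 11613, and 168.5 and 156.1 in mice 11601 and 11708. Of the 9, Cd5l alone was near 0 in the control mice, with a mean of 0.0466. The tested macrophage markers differed from each other, with log2 fold changes of −0.37 for Cd163, the only negative one, and 0.30 for Mertk. The highest were Trem2 at 2.83 and Gpnmb at 2.92. The sums of 5 monocyte and 6 fibroblast markers were also highest in mice 11601 and 11708. At an unadjusted p under 0.05 in edgeR, 6 of 6 leukocyte markers, 6 of 8 tested macrophage markers, 2 of 5 monocyte markers and 6 of 6 fibroblast markers were higher in Ox1RΔSERT mice. Neutrophil markers ranged from 7.12 to 43.4 in control and from 20.1 to 91.1 in Ox1RΔSERT mice, and 4 lymph node stroma markers reached at most 0.196. Skeletal muscle markers summed to 503 in control mouse 11253, 1003 in mouse 11708 and 101 in mouse 11601, against 1.22 to 16.4 in the other mice. The 8 brown adipocyte markers summed to 3430 to 4346 in control and 3379 to 4251 in Ox1RΔSERT mice, sums that are mostly Ucp1 and Cidea, but 3 of the 8 were lower in Ox1RΔSERT mice at an unadjusted p under 0.05, 1 by DESeq2, and 0 were higher. Their median log2 fold change was −0.39, with Dio2 at −1.22 and Elovl3 at −1.07. In whole tissue, fewer cells of a type and less RNA per cell cannot be told apart, and the part of these cell types and of the mitochondrial share in the results below was not tested.

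Of the 60 members, 52 had counts in at least 1 mouse and 34, 23 ligands and 11 receptors, passed the filter on low counts. The edgeR quasi-likelihood test with Benjamini-Hochberg adjustment over 14489 genes called 0 members (background 0%), and the lowest adjusted p of a member was 0.316. This was also the lowest adjusted p of any tested gene, and members with different unadjusted p-values share it. At an unadjusted p under 0.05, 18 of the 34 were higher in Ox1RΔSERT mice, where 10.2% of all tested genes were, and 0 were lower, where 4.96% of all genes were. The log2 fold change was above 0 in 26 of the 34, where it was in 50.4% of all tested genes, and above 1 in 19 of the 34, where it was in 7.23%. The median log2 fold change of the 34 was 1.18 and that of all tested genes 0.0021. DESeq2, run as an alternative, gave an adjusted p for 43 members. It called 7 of the 43 at an adjusted p under 0.05, all higher in Ox1RΔSERT mice (background 1.54% higher and 0.212% lower): the ligands Cxcl1, Cxcl2 and Cxcl3 and the receptors Ackr1, Ccr1, Ccr2 and Ccr7. Of these, Cxcl3 and Ccr7 were not among the 34. The 4 values of a group lay wholly above those of the other in 4 tested members, Ackr1, Ackr2, Cxcl1 and Cxcl16, all higher in Ox1RΔSERT mice (background 2.69% higher and 2.81% lower).

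These differences rested largely on Ox1RΔSERT mice 11601 and 11708, which held the highest and second highest values in 21 of the 34 members, where they did so in 20.1% of all tested genes. Without these mice the median log2 fold change of the members was 0.146 and that of all genes −0.012. In this fit 1 of 34 members, Ackr1, had an unadjusted p under 0.05, and DESeq2 called 0 members. These fits hold fewer mice, which can itself change how many genes are called, and the shares of all genes at these thresholds were not counted. Groups without overlap cannot come to overlap when mice are left out, apart from a small rescaling. Ackr1, Ackr2, Cxcl1 and Cxcl16 were therefore bound to stay without overlap, and no other member joined them. Of all genes, 4.9% were then without overlap and higher. Leaving out mouse 11601, mouse 11708 or control mouse 11560 alone also left DESeq2 with 0 members called. Over all genes it then called 17, 19 and 17. Over DESeq2 with all mice and the alternatives in edgeR and limma, the adjusted p ranged from 0.0406 to 0.996 for Ackr1, and its lowest value was 0.0117 for Ccr1, 0.0357 for Ccr2, 0.0109 for Cxcl1 and 0.0452 for Cxcl2, with the same highest value of 0.996 for each.

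**Figure D1:**
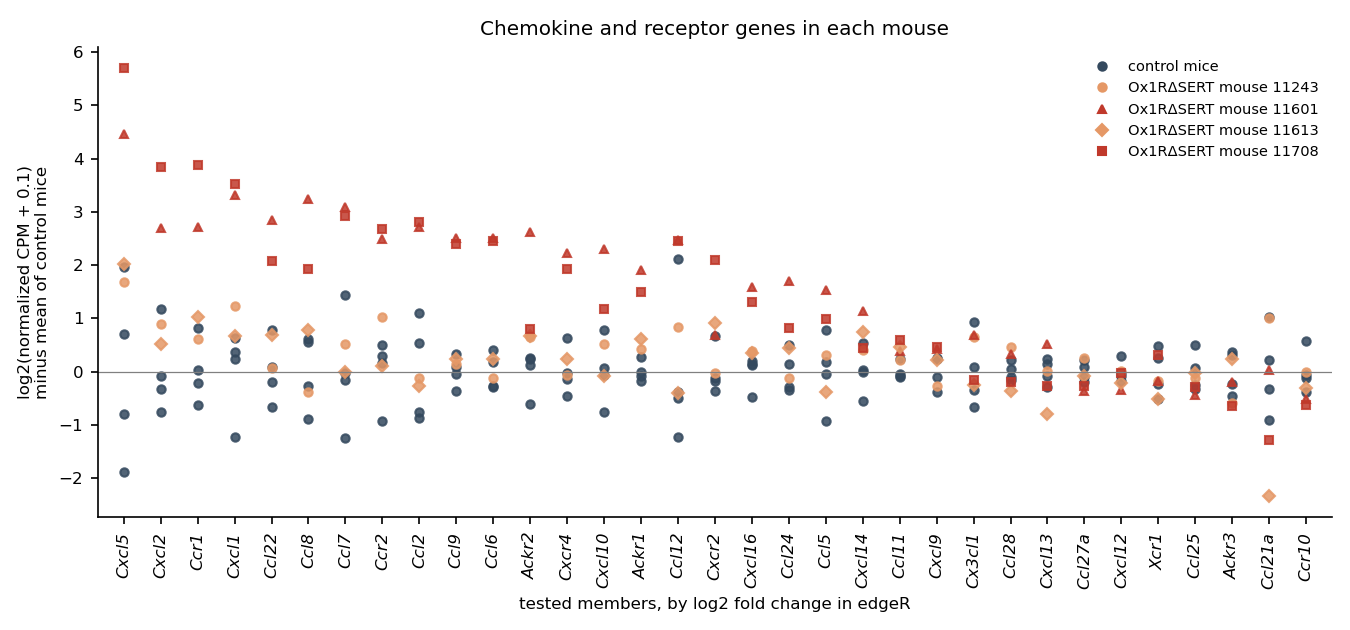
Values of 33 tested members in each mouse as log2(normalized CPM + 0.1) minus the mean of the 4 control mice, ordered by the edgeR log2 fold change; dark circles are control mice and the other marks the 4 Ox1RΔSERT mice. Mice 11601 and 11708 lead on the left side, as the highest pair in 21 of all 34 tested members, and mice 11243 and 11613 lie mostly within or just above the control mice.

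Values of single mice are given below as normalized CPM, the counts of a gene relative to the library size after TMM scaling, for control mice 10684, 11253, 11560 and 11563 and Ox1RΔSERT mice 11243, 11601, 11613 and 11708 in that order. Fold changes are Ox1RΔSERT over control, and log2 fold changes are from edgeR with their standard error. Adjusted p-values are those of edgeR's quasi-likelihood test unless DESeq2 is named.

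Among the receptors, Ackr1, Ccr1, Ccr2 and Ccr7 were higher in Ox1RΔSERT mice by DESeq2. Ackr1 (chr1:173331886-173333750), an atypical receptor of venules and red blood cells that holds inflammatory chemokines of both the CC and CXC groups, had values of 1.60, 1.14, 1.22 and 1.30 in control mice, against 1.79, 5.17, 2.04 and 3.87 in Ox1RΔSERT mice. Each Ox1RΔSERT mouse was above each control mouse. The means were 1.31 ± 0.198 in control and 3.22 ± 1.60 in Ox1RΔSERT mice (SD, n = 4 each), and the log2 fold change was 1.29 ± 0.35 (adjusted p = 0.316 by edgeR, 0.0406 by DESeq2). Of the 31-base words of the Ackr1 transcripts, 23.0% also occur in Cadm3, an overlapping gene on the same strand, so reads could be shared between them. Without mice 11601 and 11708 the log2 fold change of Ackr1 was 0.55.

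Ackr2 (chr9:121898355-121911074), a scavenger that removes inflammatory CC chemokines and is found on lymphatic endothelium, had values of 0.602, 1.17, 1.06 and 1.16 in control mice, against 1.57, 6.47, 1.59 and 1.77 in Ox1RΔSERT mice. The groups did not overlap, with mouse 11601 far above the other Ox1RΔSERT mice, which lay together at 1.57 to 1.77. Ackr2 had a log2 fold change of 1.51 ± 0.52 (adjusted p = 0.316 by edgeR, 0.0907 by DESeq2), and 0.67 without mice 11601 and 11708. Lymphatic endothelium markers had summed TPM of 6.29 to 8.55 in control mice, 6.26 and 9.57 in Ox1RΔSERT mice 11243 and 11613, and 42.1 and 29.3 in mice 11601 and 11708. Of these markers, Pdpn had the largest difference, with a mean of 2.38 TPM in control and 14.6 TPM in Ox1RΔSERT mice. Its log2 fold change was 2.15, against 0.16 for Lyve1 and −0.05 for Flt4, and Prox1 was near 0 TPM and not tested. The part of lymphatic endothelium in the level of Ackr2 was not tested. Ackr3, which binds and removes Cxcl12, was by mean TPM the third most abundant member and the most abundant receptor, with values of 72.3, 84.5, 128 and 123 in control mice, against 65.6, 86.9, 116 and 63.6 in Ox1RΔSERT mice. The groups overlapped and the log2 fold change was −0.30 ± 0.25 (adjusted p = 0.563), while on log2(TPM + 1) the sign turned, at 0.02. Ackr4, a scavenger of Ccl19, Ccl21a and Ccl25, had 2 to 11 counts per mouse and was not tested.

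Ccr1 (chr9:123962124-123968692), a receptor of monocytes, macrophages and neutrophils for Ccl3, Ccl5, Ccl6 and Ccl9, had values of 2.41, 0.824, 1.35 and 1.13 in control mice, against 2.07, 9.27, 2.81 and 21.0 in Ox1RΔSERT mice. Control mouse 10684 lay above Ox1RΔSERT mouse 11243, and mice 11601 and 11708 lay far above all others. The mean was 6.14-fold higher in Ox1RΔSERT mice, with a log2 fold change of 2.62 ± 0.74 (adjusted p = 0.316 by edgeR, 0.0117 by DESeq2) that was 0.77 without mice 11601 and 11708. Ccr2 (chr9:124101950-124113557), the receptor by which inflammatory monocytes leave the marrow and enter tissue, had values of 2.82, 2.22, 0.994 and 2.44 in control mice, against 4.15, 11.6, 2.13 and 13.3 in Ox1RΔSERT mice. Mouse 11613 was within the control range for Ccr2, mouse 11243 was above it, and mice 11601 and 11708 were highest, at 11.6 and 13.3. The log2 fold change of Ccr2 was 1.88 ± 0.58 (adjusted p = 0.316 by edgeR, 0.0357 by DESeq2) and 0.58 without that pair.

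Ccr7, with which dendritic cells and T cells find the lymph node, did not pass the filter of edgeR and is given in estimated counts, which were 2, 3, 2 and 3 in control mice, against 7, 90, 10 and 41 in Ox1RΔSERT mice. Every control mouse was at or under 3 counts, the groups did not overlap and DESeq2 gave an adjusted p of 0.0181, with most counts from mice 11601 and 11708. The receptors of the next sentences fall outside the rule by which genes were named and were chosen after their values were seen. Ccr10, the receptor of Ccl27a and Ccl28, had a negative log2 fold change, at −0.44 ± 0.29 (adjusted p = 0.467). Ccr3, the receptor of eosinophils, had estimated counts of 2, 1, 1 and 3 in control mice, against 1, 45, 1 and 40 in Ox1RΔSERT mice, so that it was above 3 counts only in the pair of mice 11601 and 11708. The 5 eosinophil markers summed to at most 0.0487 TPM in control and 0.386 TPM in Ox1RΔSERT mice, and 3 of them (Ear6, Epx and Il5ra) stayed under 0.05 TPM. The remaining CC receptors Ccr4, Ccr6, Ccr8 and Ccr9 had at most 6 counts in any mouse, and Ccr1l1 had 0.

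Of the CXC receptors, Cxcr2, through which neutrophils follow Cxcl1, Cxcl2, Cxcl3 and Cxcl5, had values of 2.12, 0.983, 1.13 and 1.18 in control mice, against 1.27, 2.13, 2.51 and 5.82 in Ox1RΔSERT mice. Here mice 11708 and 11613 were highest, mouse 11601 was level with control mouse 10684, and the log2 fold change was 1.12 ± 0.47 (adjusted p = 0.324). Neutrophil markers were likewise highest in mice 11708 and 11613, with summed TPM of 91.1 and 50.5, though mouse 11601 was close, at 46.7. In the controls they were highest in mouse 10684, at 43.4. The sums were mostly S100a8 and S100a9, with means of 20.1 and 25.0 TPM in Ox1RΔSERT mice. Of the neutrophil markers, Ly6g, Ngp and Camp were near 0, with means for Ly6g of 0.0716 in control and 0.0385 in Ox1RΔSERT mice. Cxcr4, the receptor of Cxcl12 on many leukocytes, which was named after its values were seen, had values of 0.994, 2.22, 1.38 and 1.26 in control mice, against 1.33, 6.92, 1.66 and 5.64 in Ox1RΔSERT mice. Cxcr4 had a log2 fold change of 1.41 ± 0.55 (adjusted p = 0.316). Without mice 11601 and 11708 it was 0.05. Cxcr6, the receptor of Cxcl16, had 0 to 2 counts in control and 3 to 5 counts in Ox1RΔSERT mice and did not pass the filter. Cxcr1, Cxcr3, Cxcr5 and Cx3cr1 had at most 14 counts in any mouse and were not tested. Xcr1, a receptor of cross-presenting dendritic cells, was tested and had a log2 fold change of −0.18 ± 0.35.

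The ligands of Cxcr2 had the largest median log2 fold change among the ligand groups, 2.66 over the 3 tested, and 0.87 without mice 11601 and 11708. Cxcl1 (chr5:90891241-90893115) had values of 1.78, 0.412, 1.33 and 1.45 in control mice, against 2.75, 11.9, 1.82 and 13.9 in Ox1RΔSERT mice. Each Ox1RΔSERT mouse was above each control mouse, though mouse 11613 was above control mouse 10684 by a small step only. The means were 1.24 ± 0.585 in control and 7.59 ± 6.18 in Ox1RΔSERT mice (SD, n = 4 each), a 6.10-fold difference. Cxcl1 had a log2 fold change of 2.60 ± 0.71 (adjusted p = 0.316 by edgeR, 0.0109 by DESeq2), and 0.87 without the pair.

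Cxcl2 (chr5:90903871-90905938) had values of 0.262, 0.127, 0.203 and 0.757 in control mice, against 0.611, 2.37, 0.449 and 5.35 in Ox1RΔSERT mice. Its groups overlapped through control mouse 11563, which was above mice 11243 and 11613, and the log2 fold change was 2.66 ± 0.87 (adjusted p = 0.316 by edgeR, 0.0452 by DESeq2). Cxcl3 (chr5:90786103-90789600) was too low for the edgeR filter, with estimated counts of 6, 0, 3 and 6 in control mice, against 7, 58, 6 and 230 in Ox1RΔSERT mice, and DESeq2 gave an adjusted p of 0.0292. Mice 11243 and 11613 were at the control level of Cxcl3, and mouse 11708 held most of its counts. Cxcl5 (chr5:90759360-90761624), which had the highest log2 fold change of the tested members, varied widely also in the control mice, with values of 1.80, 0.0317, 0.181 and 0.694 in control mice, against 1.46, 10.6, 1.86 and 25.1 in Ox1RΔSERT mice. Its log2 fold change was 3.83 ± 1.19 (adjusted p = 0.316 by edgeR, 0.0776 by DESeq2), and control mouse 10684 was level with mice 11243 and 11613. The log2 fold change of Cxcl5 was 2.77 without mouse 11708, 4.93 without control mouse 10684 and 1.29 without mice 11601 and 11708. These Cxcr2 ligands together made up 0.438% to 2.7% of the summed ligand TPM in control mice, 3.78% and 3.06% in mice 11243 and 11613, and 4.92% and 9.43% in mice 11601 and 11708.

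The ligands of Ccr2, the monocyte chemoattractants Ccl2, Ccl7 and Ccl12, had higher means in Ox1RΔSERT mice with mice 11601 and 11708 and not without them. Ccl2 (chr11:82035571-82037453) had values of 9.68, 2.41, 2.60 and 6.54 in control mice, against 4.08, 30.0, 3.68 and 31.9 in Ox1RΔSERT mice. The other Ox1RΔSERT mice lay inside the control range, between the lower pair and the upper pair of control mice, and the log2 fold change of 1.71 ± 0.80 (adjusted p = 0.345) turned to −0.45 without mice 11601 and 11708. Ccl7 had values of 9.89, 1.46, 3.21 and 3.51 in control mice, against 5.20, 31.5, 3.55 and 27.7 in Ox1RΔSERT mice. Ccl7 had a log2 fold change of 1.91 ± 0.81 (adjusted p = 0.325), or −0.05 without that pair. Ccl12 had values of 1.88, 0.0951, 0.226 and 0.252 in control mice, against 0.721, 2.45, 0.247 and 2.41 in Ox1RΔSERT mice, with control mouse 10684 close to mice 11601 and 11708. The log2 fold change of Ccl12 was 1.25 ± 0.96 (adjusted p = 0.533) and −0.33 without them. Without control mouse 10684 it was 2.88 (adjusted p = 0.306 by edgeR), and DESeq2 then called Ccl12. For all of Ccl2, Ccl7 and Ccl12, control mouse 10684 was the highest control mouse.

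Ccl6 and Ccl9, CC ligands of Ccr1 found in rodents and made by myeloid cells, were the most abundant members, with mean TPM of 105.5 and 46.8 over the 8 mice. Ccl6 (chr11:83587882-83593087) had values of 51.3, 60.1, 37.2 and 37.5 in control mice, against 41.7, 260, 53.6 and 249 in Ox1RΔSERT mice. Mice 11243 and 11613 were within the control range and mice 11601 and 11708 nearly equal at a level far above the controls, and the log2 fold change was 1.70 ± 0.59 (adjusted p = 0.316 by edgeR, 0.147 by DESeq2) and 0.04 without them. Ccl9 (chr11:83572919-83578636) had values of 37.3, 44.3, 27.1 and 34.3 in control mice, against 38.7, 201, 41.6 and 187 in Ox1RΔSERT mice, the same order as Ccl6 in the Ox1RΔSERT mice. The log2 fold change of Ccl9 was 1.71 ± 0.55 (adjusted p = 0.316). Ccl6 and Ccl9 together made up 39.7% to 52.1% of the summed ligand TPM of the control mice, 39.2% and 47.0% in mice 11243 and 11613, and 58.9% and 59.1% in mice 11601 and 11708. The summed TPM of all ligands was 100.5 to 164.1 in control mice and 128.1, 758.3, 177.8 and 704.9 in Ox1RΔSERT mice 11243, 11601, 11613 and 11708.

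Further CC ligands, among them those of Ccr3 and Ccr8, differed less evenly. Ccl8, which in the mouse signals through Ccr8, had values of 2.28, 2.19, 1.20 and 0.736 in control mice, against 1.09, 14.7, 2.56 and 5.80 in Ox1RΔSERT mice. Its log2 fold change of 1.92 ± 0.74 (adjusted p = 0.316) was 0.21 without mice 11601 and 11708. Its receptor Ccr8 had 1 count in all 8 mice together. Ccl11 (chr11:82057823-82062955), the eotaxin that attracts eosinophils through Ccr3, had a small difference and a narrow spread, with values of 7.09, 8.94, 7.25 and 7.02 in control mice, against 8.76, 9.90, 10.5 and 11.4 in Ox1RΔSERT mice. The lowest Ox1RΔSERT mouse was just under control mouse 11253 and above the other control mice. Ccl11 had a log2 fold change of 0.42 ± 0.13 (adjusted p = 0.316 by edgeR, 0.106 by DESeq2), and 0.35 without mice 11601 and 11708. Ccl3, which attracts monocytes and macrophages through Ccr1, had estimated counts of 7, 4, 4 and 9 in control mice, against 13, 84, 6 and 80 in Ox1RΔSERT mice. Ccl5, a further ligand of Ccr1, had normalized CPM of 0.314, 0.254, 0.0903 and 0.525 in control mice, against 0.349, 0.947, 0.180 and 0.617 in Ox1RΔSERT mice. Neither was called, with a DESeq2 adjusted p of 0.0548 for Ccl3 and of 0.589 for Ccl5, and without the pair Ccl5 had a log2 fold change of −0.16. Of ligands outside the naming rule, chosen after their values were seen, Ccl4, which attracts macrophages and T cells, had 1 to 10 counts in control and 7 to 105 in Ox1RΔSERT mice, and Ccl24, another eotaxin, had a log2 fold change of 0.88 ± 0.42. Without mice 11601 and 11708 Ccl24 was at 0.15.

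The ligands known for the steady traffic of lymphocytes and for skin and gut had the lowest median of the groups with all 8 mice. Over the 5 tested ligands of Ccr4, Ccr6, Ccr7, Ccr9 or Ccr10 the median log2 fold change was −0.11. Without mice 11601 and 11708 it was 0.09, and among the ligand groups those of Ccr2 (−0.33) and Cxcr3 (0.08) were then lower. Ccl27a, a ligand of Ccr10 and the sixth most abundant member by mean TPM, had values of 8.37, 7.55, 6.19 and 6.68 in control mice, against 8.49, 5.50, 6.78 and 5.92 in Ox1RΔSERT mice. Its log2 fold change was −0.11 ± 0.17 (adjusted p = 0.774), and the sign turned, to 0.16, on log2(TPM + 1). Ccl21a, a ligand of Ccr7, had values of 1.41, 2.54, 0.926 and 0.589 in control mice, against 2.51, 1.22, 0.157 and 0.432 in Ox1RΔSERT mice, a wide range in both groups, with a log2 fold change of −0.33 ± 0.76 (adjusted p = 0.855). Ccl19, the other ligand of Ccr7, had 3 to 7 counts in control and 8 to 26 in Ox1RΔSERT mice and a DESeq2 adjusted p of 0.292. Ccl19, Ccl21a and Ccl27a share 58.8%, 80.6% and 57.0% of their 31-base words with near-identical genes or pseudogenes, so their counts are uncertain. In the same group, outside the naming rule, Ccl22, a ligand of Ccr4 made by macrophages and dendritic cells, stood apart with values of 0.0523, 0.159, 0.113 and 0.315 in control mice, against 0.153, 1.64, 0.292 and 0.926 in Ox1RΔSERT mice. Ccl22 had a log2 fold change of 2.19 ± 0.79 (adjusted p = 0.316), while Ccl25 and Ccl28 were at −0.26 ± 0.23 and 0.11 ± 0.30. Without mice 11601 and 11708 Ccl22 was at 0.44, and its control mice had only 2 to 15 counts.

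Among the remaining CXC and CX3C ligands, Cxcl16 (chr11:70453983-70459984), a membrane-bound chemokine of macrophages and dendritic cells, was higher in every Ox1RΔSERT mouse than in any control mouse, with values of 2.48, 2.57, 1.58 and 2.44 in control mice, against 2.95, 6.94, 2.85 and 5.66 in Ox1RΔSERT mice. Its means were 2.27 ± 0.461 in control and 4.60 ± 2.03 in Ox1RΔSERT mice (SD, n = 4 each), with a log2 fold change of 1.02 ± 0.33 (adjusted p = 0.316 by edgeR, 0.0850 by DESeq2) and 0.36 without mice 11601 and 11708. Cxcl16 shares 552 exonic bases with Zmynd15 on the opposite strand. The libraries were stranded, and whether strand was used in the quantification is not given in the sources used here. Cxcl14, a chemokine of epithelia and adipose tissue, had values of 19.6, 13.6, 13.8 and 9.25 in control mice, against 18.1, 29.8, 22.8 and 18.4 in Ox1RΔSERT mice, where mice 11243 and 11708 lay just under control mouse 10684 and above the other control mice, with a log2 fold change of 0.67 ± 0.24 (adjusted p = 0.316). Without mice 11601 and 11708 Cxcl14 was at 0.55. Cxcl12, which retains leukocytes and progenitors through Cxcr4, had values of 52.5, 65.0, 46.9 and 50.3 in control mice, against 53.8, 41.7, 45.9 and 52.0 in Ox1RΔSERT mice. Cxcl12 had a log2 fold change of −0.15 ± 0.13 (adjusted p = 0.567), and the sign turned on library size scaling (0.06), with a transcript length offset (0.03) and on log2(TPM + 1) (0.35). Outside the naming rule, the interferon-induced ligands of Cxcr3 were at 1.35 ± 0.63 for Cxcl10 and 0.22 ± 0.22 for Cxcl9, the B cell chemokine Cxcl13 at −0.08 ± 0.29 and Cx3cl1 at 0.17 ± 0.38. Without mice 11601 and 11708 Cxcl10 was at 0.19 and Cxcl9 at −0.03.

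**Figure D2:**
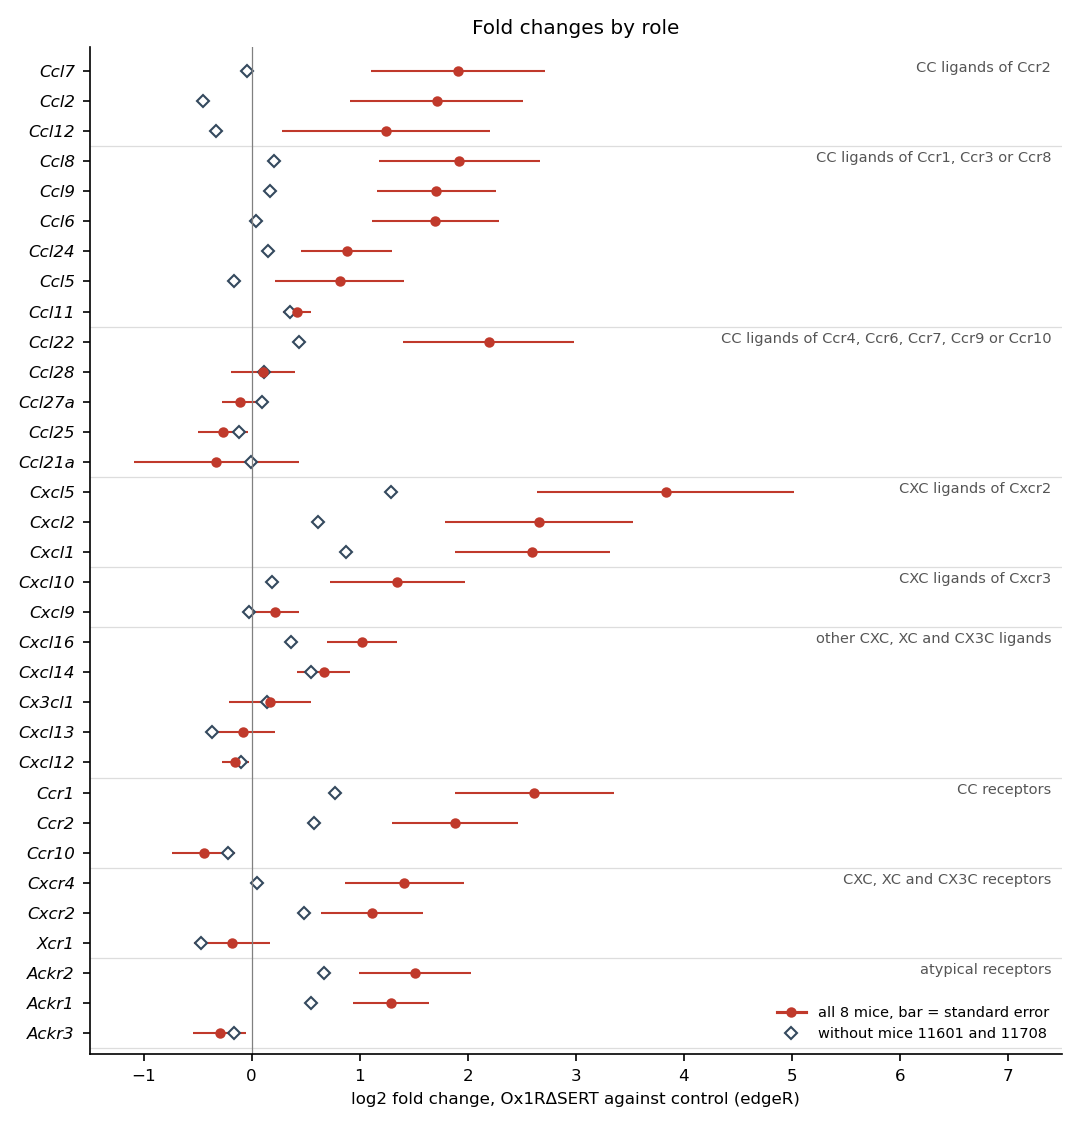
Log2 fold changes of 33 tested members in edgeR, grouped by role, with filled circles and standard error bars for all 8 mice and open diamonds for the fit without mice 11601 and 11708. The ligands of Cxcr2 and the receptor Ccr1 lie furthest right, and most open diamonds lie near 0, with a median of 0.146 over the 34 tested.

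Ligands and receptors were then set side by side in each mouse. For Ccl2 with Ccr2, both genes were highest in mice 11708 and 11601, but the other Ox1RΔSERT mice differed between the genes: mouse 11243 exceeded all control mice in Ccr2 and not in Ccl2. Ccl6 and Ccl9 with Ccr1 had the same highest pair, and mouse 11613, which was within the control range for Ccl6 and Ccl9, exceeded all control mice in Ccr1. For Cxcl1, Cxcl2, Cxcl3 and Cxcl5 the highest pair was mice 11601 and 11708 and for Cxcr2 it was mice 11708 and 11613. In TPM the ligand was far above its receptor in some pairs, Ccl6 at 38.4 against Ccr1 at 0.496 in control and at 172.6 against 4.06 in Ox1RΔSERT mice, and Ccl2 at 6.97 against Ccr2 at 0.554 and at 30.6 against 2.79. Cxcl12 at 10.1 TPM in control and 13.3 TPM in Ox1RΔSERT mice was under its atypical receptor Ackr3, at 29.2 and 30.1 TPM, and above Cxcr4, at 0.801 and 2.77 TPM. Cxcl16 (0.865 and 2.62 TPM) and Ccl11 (7.13 and 12.4 TPM) were measured with their receptors Cxcr6 and Ccr3 at or under 0.17 TPM in the mean of either group. These values are of whole tissue and do not say in which cells a ligand or receptor was made.

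**Figure D3:**
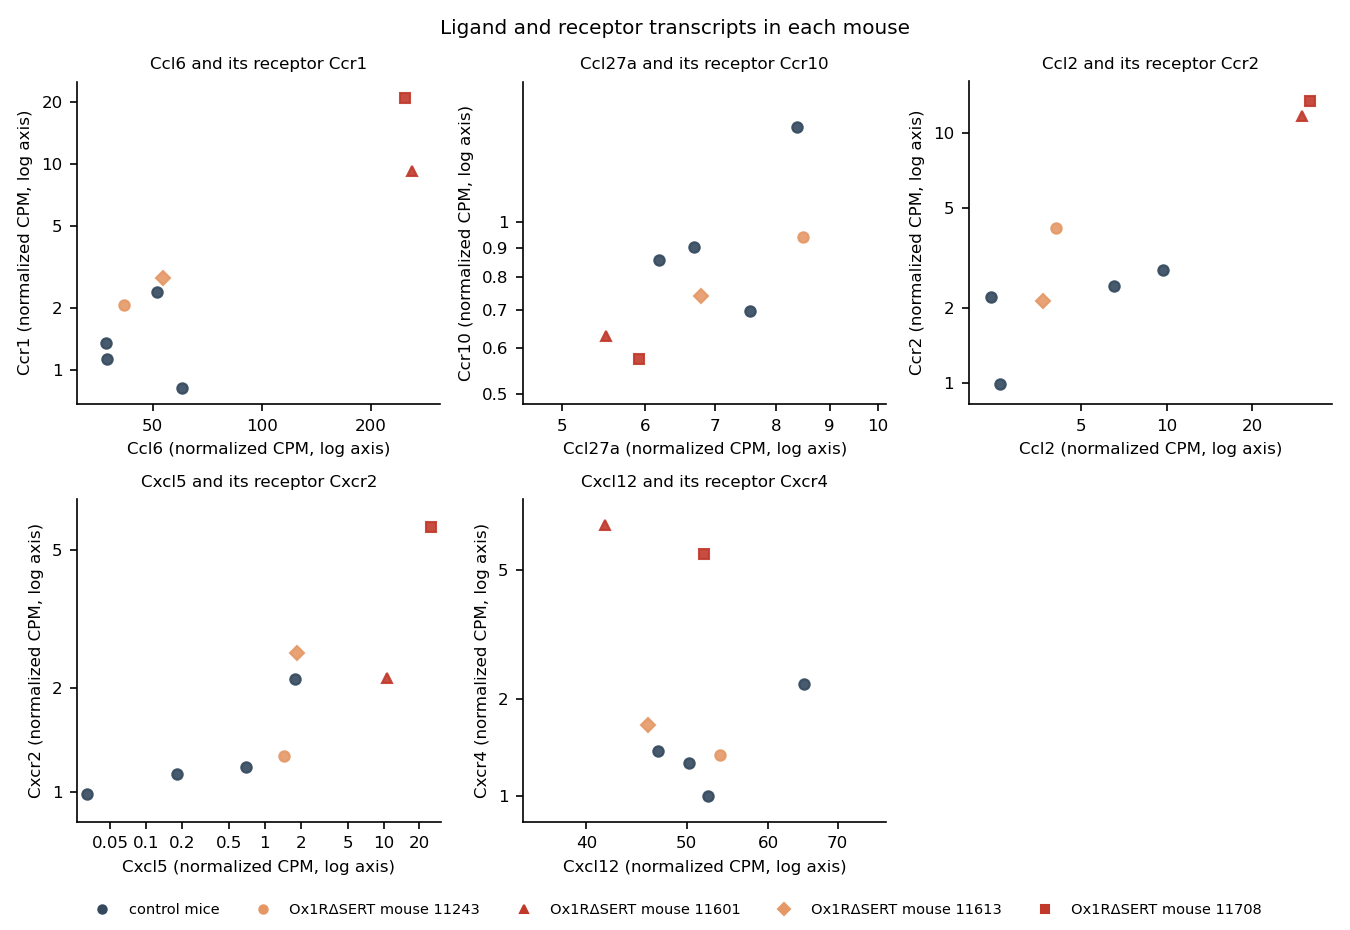
Normalized CPM of a ligand against that of its receptor in each mouse, on log axes, for 5 tested receptors, each with its most abundant tested ligand. Mice 11601 and 11708 are at the upper right for Ccl6 and Ccr1 and for Ccl2 and Ccr2; Cxcl12 differs little while Cxcr4 is highest in these mice, and Ccl27a and Ccr10 are lowest in them.

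Neighbouring members were also read in their order along the chromosome. On chr11:82035571-82305690 lie Ccl2, Ccl7, Ccl11, Ccl12, Ccl8 and Ccl1, with a median log2 fold change of 1.71 over the 5 tested and of −0.05 without mice 11601 and 11708, and Ccl11 the lowest of them at 0.42. On chr11:83525778-83664683 lie Ccl5, Ccl9, Ccl6, Ccl3 and Ccl4, with a median of 1.70 over the 3 tested and 0.04 without the pair. The cluster on chr5:90759360-90905938 with Cxcl5, Cxcl3, Cxcl15, Cxcl1 and Cxcl2 had a median of 2.66 over 3 tested genes, and Cxcl15, which lies between Cxcl3 and Cxcl1, had 0 counts in every mouse. On chromosome 9 the receptor genes Ccr1 and Ccr2 were at 2.62 and 1.88, and Xcr1 next to Ccr1 at −0.18. The chromosome 4 cluster of Ccl27a, Ccl21b, Ccl27b, Ccl19 and Ccl21a had no tested member with a positive log2 fold change.

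**Figure D4:**
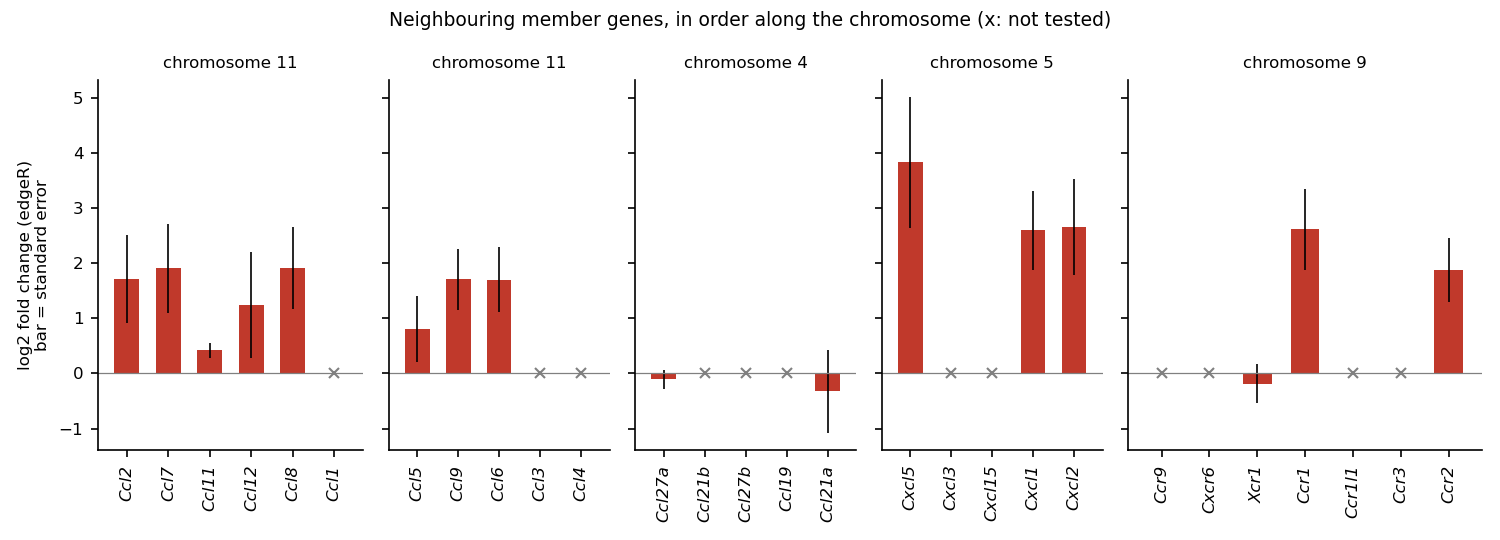
Log2 fold changes with standard errors of members that neighbour each other, in their order along the chromosome, for the 5 clusters with at least 5 members; crosses mark members that were not tested. Bars are high on chromosomes 5, 9 and 11 and near 0 on chromosome 4, and within a cluster Ccl11 (0.42) and Xcr1 (−0.18) are lower than their neighbours.

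Beside the members, 67 other genes of chemokine signalling were counted, of which 63 passed the filter. edgeR called 0 of them. At an unadjusted p under 0.05, 31 of 63 were higher in Ox1RΔSERT mice (background 10.2%) and 0 lower (background 4.96%), and DESeq2 called 9, all higher (background 1.54%). The median log2 fold change of the 63 was 0.53, and 0.15 without mice 11601 and 11708. All 14 genes of leukocyte adhesion had a positive log2 fold change, as did 50.4% of all tested genes, with a median of 1.58. Without mice 11601 and 11708 the median was 0.26 and 12 of the 14 were positive. With all mice DESeq2 called the integrin genes Itgal, Itgam, Itgax and Itgb7. Of 31 genes of receptor signalling, DESeq2 called Pik3cd and Pik3r5, subunits of the phosphoinositide 3-kinases of leukocytes, and Vav1, an exchange factor for Rac. Vav1 had values of 1.18, 1.395, 0.835 and 1.41 in control mice, against 2.64, 6.51, 2.56 and 7.47 in Ox1RΔSERT mice, with no overlap and a log2 fold change of 1.99 ± 0.40 (adjusted p = 0.316 by edgeR, 0.00166 by DESeq2). Of the genes that encode or relay inducers of chemokines, Il1b, an inflammatory cytokine, had values of 0.915, 0.507, 0.835 and 0.420 in control mice, against 0.895, 4.52, 2.63 and 10.5 in Ox1RΔSERT mice. Il1b had a log2 fold change of 2.79 ± 0.69 (adjusted p = 0.316 by edgeR, 0.00366 by DESeq2), and Nfkb2, a subunit of NF-kB, was the other DESeq2 call at 0.66 ± 0.17. Tnf, Il6, Il1a and Ifng did not pass the edgeR filter. The leukocyte and macrophage markers given above were highest in the same mice, 11601 and 11708.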

How the data were processed

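RNA of BAT from 4 control and 4 Ox1RΔSERT mice was sequenced by the authors after poly-A selection in stranded libraries. The authors quantified genes with Salmon 0.14.1 on GRCm38, and the submitters' processing notes also name STAR and DESeq2 1.26.0. The deposited table holds estimated counts per gene, not normalized, and TPM values that the authors normalized for transcript length. Whether strand was used in the quantification is not given in the sources used here.

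Symbols and positions were taken from GENCODE M21 on GRCm38, which gave a symbol for 44118 of 44674 genes. Estimated counts were rounded and fitted for all genes in edgeR 4.0.16 (filterByExpr, TMM, two-sided quasi-likelihood test, Benjamini-Hochberg adjustment, threshold 0.05) in R 4.3.3, with no covariates. Normalized CPM are counts divided by the TMM-scaled library size, and a level of 3 counts corresponds to 0.0592 to 0.0951 CPM. Exact permutation tests used all 70 assignments. Groups of 4 that do not overlap always give 0.0286, the smallest possible p, so none is given for members named for this. The scripts were tested on simulated data. The labels do not say more of the mice of a group than that they are separate samples.

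The members and lists were chosen with earlier results of these data known. Genes were named if edgeR or DESeq2 called them, if their groups did not overlap, if they were among the 12 members with the highest mean TPM, if they were the partner of a gene of the first 2 kinds, or if the study names them (Cxcl3 and Ccr1). The study's own test of the genotypes was DESeq2 1.26.0, and it names Cxcl3 and Ccr1 among its significantly regulated genes. Alternatives were DESeq2 1.42.0, RLE and library size scaling, other filters, a transcript length offset, limma-trend 3.58.1 on log2(TPM + 1) and log2(TPM + 0.1), each mouse left out, and mice 11601 and 11708 left out. Promoters are those of RefSeq on GRCm38.p6. Of the tested members, 1 is not reported here by itself and is left out of the figures, and the counts and medians over all members include it.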

Additional observations from a re-analysis of the deposited data

Results flagged for a closer look

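For the 27 named members, 54 groups of 4 mice were examined and 5 held a mouse far from the other 3, by Dixon's ratio of the gap to the range against its 95% critical value, and chance alone flags about 1 in 20 groups. All values are normalized CPM. Ackr2 was at 6.47 in Ox1RΔSERT mouse 11601 and at 1.77 in the nearest mouse of that genotype. Ccl12 was at 1.88 in control mouse 10684 and at 0.252 in the nearest control mouse, and Cxcr2 was at 2.12 in the same mouse and at 1.18 in the nearest. Ccl11 was at 8.94 in control mouse 11253 and at 7.25 in the nearest. Cxcl16 was lowest in control mouse 11560, at 1.58, with 2.44 in the nearest control mouse.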

How the results depend on the processing

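No paired analysis was possible because the labels give the mice no shared replicate numbers. The count of members called was 0 in edgeR under every scaling, filter, offset and left-out mouse tried, in limma-trend, and with mice 11601 and 11708 left out. DESeq2 called 7 members and 9 of the other genes of chemokine signalling. With 1 mouse left out DESeq2 called 0 to 21 members, and its calls over all genes moved as well. The count was 0 without mouse 11601, 11708 or 11560, where DESeq2 called 17, 19 and 17 of all genes. It was 2 without 11563 (49 of all genes), 4 without 11253 (247) and 10 without 10684 (373). It was 18 without 11613 (936) and 21 without 11243 (1516). Chosen after seeing the data, DESeq2 without mice 11601 and 11708 called 0, and the 18 members with an unadjusted p under 0.05 in edgeR became 1. For these fits with fewer mice the shares of all genes were not counted. The median log2 fold change of members went from 1.18 to 0.146 without both mice and was 0.736 to 1.49 with 1 mouse left out. With no filter on low counts 8 members were without overlap, the 4 given above and Ccl11, Ccr7, Ccr9 and Cxcr6. The share of all genes in that setting was not counted. Ccl11 was separated narrowly, with a highest control value of 8.88 CPM and a lowest Ox1RΔSERT value of 8.91. Ccr9 had 0 counts in control and 1 to 5 in Ox1RΔSERT mice, and Cxcr6 and the control mice of Ccr7 were also at few counts.

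Of the alternative values of single named members, 348 kept their direction and their side of the threshold, 5 passed it only in the alternative and 16 changed sign. Without mice 11601 and 11708, log2 fold changes became −0.33 for Ccl12, −0.45 for Ccl2, −0.16 for Ccl5, −0.045 for Ccl7 and 0.092 for Ccl27a. With 1 mouse left out, Ccl21a was between −1.19 and 0.14, at 0.03 without mouse 11613 and 0.14 without 11253. Ccl27a was at 0.083 on library size scaling, 0.16 on log2(TPM + 1) and 0.17 on log2(TPM + 0.1), Cxcl12 at 0.062, 0.35 and 0.38 on these and 0.034 with a length offset, and Ackr3 at 0.021 on both TPM scales. The median log2 fold change of all genes was 0.0021 as reported, 0.219 on library size scaling, 0.230 on log2(TPM + 1) and 0.319 on log2(TPM + 0.1), so small changes on these scales are to be read against those medians. The cause of the other changes was not tested. Depth was 35852708 to 50063339 counts, which limits the precision of members with few counts, such as Ccr7 and Cxcl3.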
